A study of Mus musculus with 9 samples.

Results

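The genes described here encode the protein subunits of the mitochondrial respiratory chain and ATP synthase. They were chosen by gene name: the nuclear genes of the Nduf, Sdh, Uqcr, Cox4 to Cox8 and Atp5 families with Cyc1 and Cycs, and the 13 protein genes of mitochondrial DNA. Of the 25361 genes in the count table, 103 matched these names (90 nuclear and 13 mitochondrial), and 95 of them had at least 30 counts over all libraries (82 nuclear and 13 mitochondrial). Of the other 8, 5 had no count (Cox7b2, Cox8b, Cox8c, Ndufb11b and Atp5o_1) and 3 had few. Just outside the minimum lay Ndufa4l2 with 19 counts and Cox6b2 with 7; just inside lay the pseudogene Cox5b-ps with 39 and Cox7a1 with 78. edgeR's filter on low counts removed only Cox5b-ps among the 95, so 81 nuclear and 13 mitochondrial genes were tested. Ndufa4, named as a subunit of complex I, is known as a subunit of complex IV and is counted there.

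RNA came from cells that magnetic beads against CD8a had pulled out of MC38 tumours, which had grown for 21 days under the skin of wild-type male C57BL/6N mice. The MC38 line comes from a mouse colon carcinoma. The 3 groups, of 3 libraries each, were young mice fed ad libitum (5 months old), aged mice fed ad libitum (20 months old) and aged mice on caloric restriction (20 months old, given 70% of the ad libitum intake). The labels do not give the age at which restriction began, and there was no restricted group of young mice.

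Each respiratory complex does a known part of the work. Complex I takes electrons from NADH and complex II from succinate; both pass them through ubiquinone to complex III, cytochrome c carries them to complex IV, which reduces oxygen, and complex V (ATP synthase) uses the proton gradient that complexes I, III and IV build. Complexes I, III, IV and V are built from subunits of both genomes, while complex II is wholly nuclear. Mitochondrial DNA is transcribed as long precursors from both strands, and most of the messages are polyadenylated after cutting, whereas the message of mt-Nd6, which lies on the other strand, is known to lack a stable poly(A) tail. Nuclear transcription factors, among them NRF1, the ETS factor GABP and YY1, are known to act at promoters of nuclear respiratory genes.

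The promoters of Cox8a and Atp5md are shown because these genes, with Cox6c, were the respiratory genes that passed the test in any comparison; RefSeq promoters were matched by symbol to 66 of the 82 nuclear genes, Cox6c not among them. Each sequence runs 5′ to 3′ from 250 bases before the gene's start to 50 after it, and capitals mark matches of the ETS core, CCGGAAG on either strand. The first is chr19:7217567-7217866 and the second chr19:47090598-47090897, both on the minus strand of GRCm38.p6 in RefSeq.
Cox8a: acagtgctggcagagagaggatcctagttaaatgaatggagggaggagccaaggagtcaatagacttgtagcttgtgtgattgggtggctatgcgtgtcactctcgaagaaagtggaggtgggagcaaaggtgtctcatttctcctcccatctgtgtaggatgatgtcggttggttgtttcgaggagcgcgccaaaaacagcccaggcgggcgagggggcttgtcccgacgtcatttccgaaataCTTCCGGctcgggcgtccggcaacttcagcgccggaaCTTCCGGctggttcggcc
Atp5md: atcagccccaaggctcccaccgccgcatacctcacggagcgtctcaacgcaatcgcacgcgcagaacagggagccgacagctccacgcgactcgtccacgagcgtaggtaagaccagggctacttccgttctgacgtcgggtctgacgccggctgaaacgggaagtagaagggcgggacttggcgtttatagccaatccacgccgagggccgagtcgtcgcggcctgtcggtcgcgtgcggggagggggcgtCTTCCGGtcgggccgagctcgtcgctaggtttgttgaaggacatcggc
The Cox8a window held 2 matches of the ETS core and the Atp5md window 1, and neither held the NRF1 core (CGCATGCG) or the YY1 core (AAGATGGC), searched on both strands. Over the 66 promoters, 16 (24.2%) held the ETS core, 9 (13.6%) the NRF1 core and 9 (13.6%) the YY1 core, and no matches of different motifs overlapped. Among all 32851 promoters of the table the shares were 8.86%, 1.87% and 2.75%, and among the 7200 promoters of tested genes 20.5%, 4.28% and 5.15%. A match of these letters is a description and not evidence of binding.

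Library totals ran from 810662 to 1258575 counts of reads at the 3′ ends of transcripts, and the aged ad libitum libraries were the shallowest. CD8 T cell transcripts were few: Cd8a had 5 to 54 counts in the young libraries, 4 to 59 for aged ad libitum mice and 47 to 53 in the restricted libraries, and each level given here covers whatever cells the beads retained. The 14 genes of the monocyte and macrophage list summed to 4248 to 4617 CPM (counts scaled to a library total of 1000000) in young, 2417 to 6496 in aged ad libitum and 8873 to 10478 in restricted libraries, against 64.1 to 290.0, 138 to 480 and 283 to 488 CPM for the 12 T cell genes. All 18 genes of the skeletal muscle list, 12 of 12 of the keratinocyte list and 5 of 5 of the red blood cell list had counts. Their sums did not overlap between any groups, at 24.6 to 39.7, 52.8 to 104 and 117 to 549 CPM for muscle, 6.49 to 12.3, 78.1 to 154 and 249.1 to 892 CPM for keratinocytes, and 0 to 7.37, 45.6 to 95.8 and 166 to 389 CPM for red blood cells in young, aged ad libitum and restricted libraries.

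The mitochondrial genes took a large share of each library, and that share varied more inside the restricted group than between groups. They took 33.7%, 33.8% and 39.3% of the young libraries' counts, 30.9%, 42.4% and 36.9% for aged ad libitum mice and 45.7%, 23.5% and 37.7% in the restricted libraries (replicates 1, 2 and 3). Restricted replicates 1 and 2 thus held the highest and the lowest share of all 9. Since a higher share leaves fewer counts for all nuclear genes, nuclear levels were also taken as CPM of the counts that were not mitochondrial.

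On that scale the summed nuclear respiratory genes separated young from aged mice. The 82 genes summed to 28363.5, 26018.5 and 24949.6 CPM of non-mitochondrial counts in the young libraries, to 22627, 21288 and 21895 for aged ad libitum mice and to 21428, 21712 and 21752 in the restricted libraries. Every young library lay above all 6 aged libraries, and the 2 aged groups overlapped. The mean was 17.0% lower in aged ad libitum than in young mice, and restricted mice stood 1.40% below aged ad libitum mice. As CPM of all counts the sums were 17069 ± 1837, 13903 ± 1685 and 13931 ± 2502 (SD, n = 3) for young, for aged ad libitum and for restricted mice, and all groups overlapped. Fewer cells that are rich in these transcripts and less of the transcripts per cell cannot be told apart in such bulk samples. The sums of the muscle, keratinocyte and red blood cell lists given above also set young apart from aged libraries. So did the neutrophil list, at 3.30 to 6.55, 8.55 to 37.4 and 56.4 to 97.1 CPM in young, aged ad libitum and restricted libraries, and the adipocyte list, at 7.42 to 45.1, 83.1 to 119.7 and 62.3 to 95.3 CPM. Of the 9 adipocyte genes, 4 (Lep, Plin1, Ucp1 and Adipoq) had no count in any library. That sum thus comes from the other 5 and does not show that fat cells were present. The endothelial list, at 80.3 to 132, 228 to 634 and 91.4 to 257 CPM, and the pericyte list, at 42.1 to 66.4, 83.1 to 139.8 and 34.9 to 57.2 CPM, set young apart from aged ad libitum libraries but overlapped between young and restricted ones. The part of these lists in the difference was not tested.

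**Figure D1:**
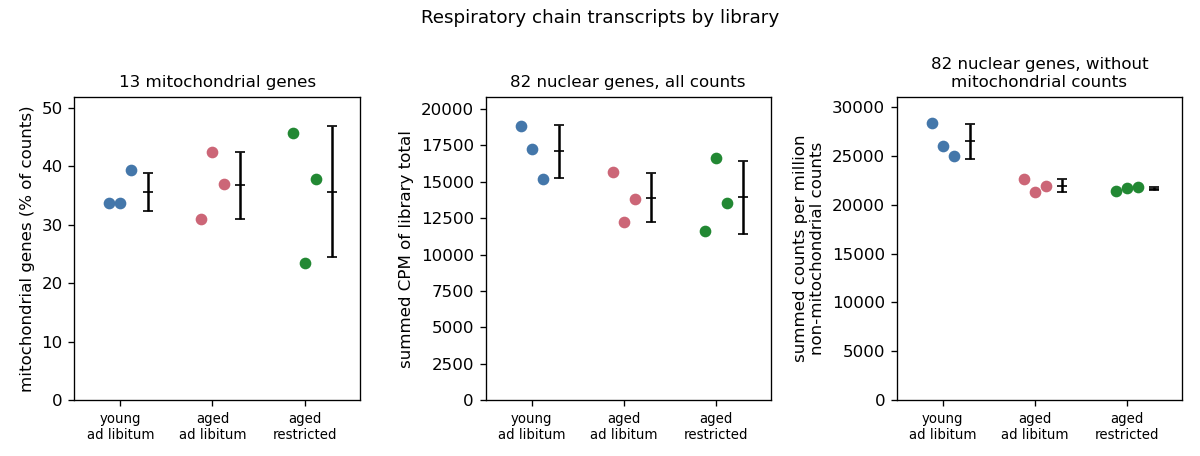
Share of counts from the 13 mitochondrial genes (left, %), summed level of the 82 nuclear respiratory genes in CPM of all counts (middle) and in CPM of non-mitochondrial counts (right); each point is a library, and bars give the group mean and SD over 3 libraries. The right panel has all 3 young libraries at 24949.6 or above and all 6 aged libraries at 22627 or below, while the groups overlap in the other panels.

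The difference in the sum was not carried by a few genes alone. The 10 nuclear genes with the most counts held 35.7% of the nuclear respiratory counts, and Cox6c, Cox8a and Atp5md held 14.0%. Without these 3, the other 79 genes summed to 22268 ± 1435 CPM of non-mitochondrial counts in young, 18793 ± 454 in aged ad libitum and 19113 ± 240 in restricted mice (SD, n = 3), again with every young library above all aged ones. By complex, the sums of complexes I, III, IV and V were each lower in both aged groups than in every young library on this scale. Complex I stood at 7062 ± 377, 5823 ± 104 and 5657 ± 111, and complex V at 8304 ± 594, 6740 ± 178 and 7140 ± 289 (SD, n = 3). Complex II, the smallest sum, was at 424 ± 39.3, 375 ± 42.6 and 505 ± 82.3, and its groups overlapped in all 3 comparisons.

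Set against the mitochondrial genes, the nuclear genes gave ratios that overlapped in all groups. Per 1000 mitochondrial counts there were 55.9, 51.1 and 38.6 nuclear respiratory counts in the young libraries, 50.5, 28.9 and 37.5 for aged ad libitum mice and 25.5, 70.5 and 35.9 in the restricted libraries. Restricted replicate 2 was highest and replicate 1 lowest, the reverse of their mitochondrial shares. By complex the group means ran from 16.3 (complex III, aged ad libitum) to 66.1 (complex V, young), with within-group SDs of 3.85 to 37.6. In complex IV the ratio was 60.3 ± 12.9 in young, 41.5 ± 11.4 in aged ad libitum and 45.9 ± 19.3 in restricted mice (SD, n = 3). Counts of different genes are not corrected for length, because the 3′ method reads about 1 place per transcript.

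With age, both groups fed ad libitum, most nuclear respiratory genes had a lower fitted level but none passed the test. Genes were tested with edgeR's quasi-likelihood test on counts with Benjamini-Hochberg adjustment over 9009 genes, at a threshold of 0.05, and 0.289% of all tested genes passed. Of 81 nuclear genes 66 were lower in aged mice and 15 higher, and their median log2 fold change was -0.32 against -0.0014 over all tested genes. None of the 94 respiratory genes passed. At an unadjusted p under 0.05 there were 14 (14 nuclear, 13 of them lower), where 10.4% of all tested genes had such a p, and DESeq2 called 1 gene, Atp5g3. All 3 aged libraries lay below all 3 young libraries for 27 of 81 nuclear genes and above them for none, where 8.58% of all tested genes lay below and 7.4% above. Short genes as a class also lay lower: of 388 tested genes no longer than the median length of these nuclear genes (892 nucleotides, longest coding transcript in GENCODE M21), 270 were fitted lower with age, at a median log2 fold change of -0.25. The 388 include the shorter respiratory genes. Of these 388, 86 had all aged libraries below all young ones and 13 above, and 76 had an unadjusted p under 0.05 (edgeR). Within the nuclear genes, the log2 fold change with age had a Spearman correlation of 0.018 with length over 80 genes, the 40 shorter ones had a median of -0.36 (31 lower) and the 40 longer ones -0.28 (34 lower). The correlation over 8981 tested genes was 0.17.

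Atp5g3, 1 of 3 genes for the c subunit that forms the rotating ring of ATP synthase, had the smallest p. It stood at 656, 640.3 and 568 CPM (scaled by TMM, which corrects library sizes for composition) in the young libraries and at 374, 429 and 390 CPM for aged ad libitum mice. The groups did not overlap, and the log2 fold change was -0.64 ± 0.18 (SE; edgeR adjusted p = 0.125). The other c subunit genes, Atp5g1 and Atp5g2, named after their values were seen, likewise had all aged libraries below all young ones (edgeR adjusted p = 0.489 and 0.565). The group ranges were thus apart for 3 of 3 ring genes, where 8.58% of all tested genes lay below. Of the 5 genes of the F1 head and central stalk, where ATP is made, 4 were fitted lower, with a median log2 fold change of -0.20. For Atp5l, a small membrane subunit (g), the log2 fold change was -0.56 ± 0.20 (SE; edgeR adjusted p = 0.280).

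In complex I, 29 of 36 nuclear genes were fitted lower in aged mice, with -0.36 as the median log2 fold change. Ndufb3, an accessory subunit of the membrane arm, stood at 258, 167 and 242 CPM in young and 137, 73.8 and 133 CPM in aged ad libitum libraries. Its groups did not overlap (log2 fold change -0.95 ± 0.28 SE, edgeR adjusted p = 0.156). Ndufa10, another accessory subunit, went the other way, from 28.1, 51.5 and 70.8 CPM to 123, 96.5 and 55.3 CPM, with overlap (log2 fold change 0.87 ± 0.36 SE, edgeR adjusted p = 0.376). In complex III, 8 of 9 genes were lower, and for Uqcrc2, a core protein of that complex, all aged libraries (24.1 to 39.3 CPM) were below the young ones (43.3 to 62.8 CPM; adjusted p = 0.482). In complex IV, 10 of 14 were lower, and in complex II 3 of 4. Ndufs4, an accessory subunit of complex I, stood at 52.1, 66.8 and 69.0 CPM in young and at 41.7, 21.5 and 38.1 CPM in aged ad libitum libraries without overlap (edgeR adjusted p = 0.388). Uqcrh, the hinge protein of complex III, and Sdhb, the iron-sulfur subunit of complex II, had overlapping groups (adjusted p = 0.546 and 0.809).

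**Figure D2:**
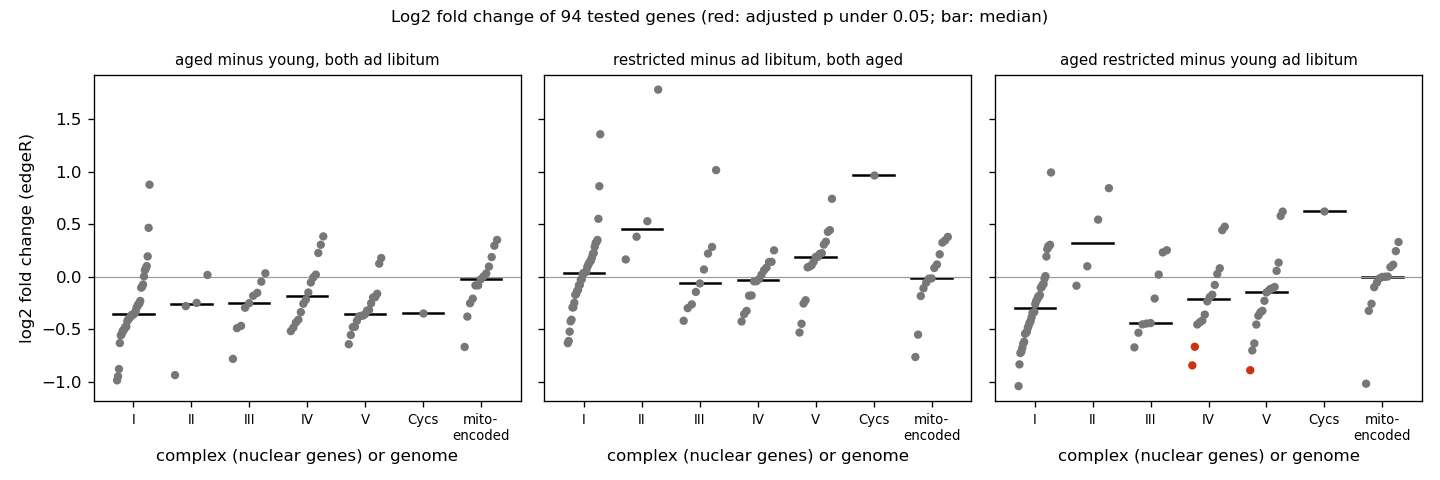
Log2 fold change of each tested respiratory gene, by complex for nuclear genes and together for the mitochondrially encoded genes, in the 3 comparisons; bars are medians, and red points have an adjusted p under 0.05. Medians of complexes I to V lie below 0 in the left panel (-0.36, -0.27, -0.25, -0.19 and -0.36), and 3 points are red, all in the right panel.

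Under restriction in aged mice the nuclear genes had no common direction. Of 81 genes 48 were higher and 33 lower than in aged ad libitum mice, and the median log2 fold change was 0.068 (0.00041 over all tested genes). By complex, 20 of 36 genes were fitted higher in I, 4 of 4 in II, 4 of 9 in III, 6 of 14 in IV and 13 of 17 in V. As TMM-scaled CPM the complex V sum was 7.19% higher without overlap. As CPM of non-mitochondrial counts it was 5.94% higher, and the groups overlapped. None of the 94 respiratory genes passed edgeR's test, where 0.944% of all tested genes did, and DESeq2 called none. At an unadjusted p under 0.05 there were 12 (7 nuclear genes higher, 4 lower, and mt-Nd6 lower), where 11.7% of all tested genes had such a p. The groups did not overlap for 9 nuclear genes upward and 9 downward, against 9.26% and 8.47% of all tested genes.

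Among the genes with the smallest p-values, none of which came near the threshold, several had groups that did not overlap. Among those fitted higher, Atp5pb (the b subunit of the ATP synthase peripheral stalk) stood at 96.6, 91.2 and 101 CPM in aged ad libitum and at 155, 165 and 163 CPM in restricted libraries. Its groups were far apart relative to their spread, but the test of all genes gave an adjusted p = 0.202 (edgeR, log2 fold change 0.74 ± 0.26 SE). In the table Atp5pb overlaps Wdr77 (236 counts over all libraries) on the opposite strand, and their reads cannot be told apart there. Sdhd, a membrane anchor of complex II, was at 1.02, 12.1 and 15.98 CPM in the aged ad libitum and at 35.4, 22.3 and 40.9 CPM in the restricted libraries. Its groups did not overlap either (log2 fold change 1.78 ± 0.65 SE, edgeR adjusted p = 0.236), and the lowest library held 1 count. For Ndufs8, an iron-sulfur core subunit of complex I, the values were 10.2, 20.1 and 28.3 CPM against 37.6, 61.7 and 48.9 CPM (adjusted p = 0.216). Uqcrc2 was at 28.5, 24.1 and 39.3 against 44.3, 76.8 and 64.0 CPM (adjusted p = 0.257). Cycs, cytochrome c itself, was at 23.4, 77.8 and 59.0 against 50.9, 125 and 132 CPM, with overlap (adjusted p = 0.307).

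Among those fitted lower, Atp5md, a small subunit of ATP synthase also known as DAPIT, stood at 463, 425 and 484 CPM in aged ad libitum and at 369, 262 and 319 CPM in restricted libraries (log2 fold change -0.53 ± 0.19 SE, edgeR adjusted p = 0.232). Cox7b, an accessory subunit of complex IV, was at 295, 311 and 306 against 210.4, 236 and 231 CPM (adjusted p = 0.422). The ranges did not overlap for either gene. By role, all 5 F1 genes and all 4 complex II genes were fitted higher in restricted mice, with median log2 fold changes of 0.14 and 0.45, while 4 of 5 small subunits of complex III had a lower one, at a median of -0.26. None of these passed.

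Aged restricted and young ad libitum mice, which differed in both age and feeding, were the pair in which respiratory genes passed. Cox6c, Cox8a and Atp5md fell, and none rose; over all tested genes 1.94% passed and 0.833% passed with a lower level. At an unadjusted p under 0.05 there were 20 nuclear genes, 17 lower and 3 higher, and mt-Nd6, where 11.6% of all tested genes had such a p. Of 81 nuclear genes 59 were lower, at a median log2 fold change of -0.22 (0.016 over all tested genes). The groups were apart for 27 nuclear genes downward and 5 upward, against 9.26% and 9.82% of all tested genes. The comparison shares its libraries with the other 2, so it is no separate evidence for the lower sums of aged mice.

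Cox6c, an accessory subunit of complex IV, stood at 1024, 975 and 795 CPM in the young libraries, 677, 624 and 650.4 CPM for aged ad libitum mice and 465, 593 and 496 CPM in the restricted libraries. The 3 groups did not overlap at any point. Against young mice the restricted level fell by 0.85 ± 0.17 on the log2 scale (SE; edgeR adjusted p = 0.00515). Cox8a, the ubiquitous form of the smallest complex IV subunit, stood at 1328, 1202 and 1185 CPM in young, 996, 786 and 869 CPM in aged ad libitum and 853, 643 and 843 CPM in restricted libraries. Both aged groups lay below all young libraries and overlapped each other. The restricted level fell by 0.67 ± 0.17 on the log2 scale (SE; edgeR adjusted p = 0.0279). Atp5md was at 666, 542 and 552 CPM in the young libraries, with the aged ad libitum and restricted values given above. Its 3 groups were also apart throughout, and the restricted level fell by 0.89 ± 0.19 on the log2 scale (SE; edgeR adjusted p = 0.00844). These 3 calls rest on young replicate 1: without it none of the 3 passed, with edgeR adjusted p = 0.0547, 0.151 and 0.0835 for Cox6c, Cox8a and Atp5md, and the log2 fold changes were -0.77, -0.62 and -0.79. Scaled by plain library totals, only Atp5md passed (adjusted p = 0.124 and 0.170 for Cox6c and Cox8a). The Cox8a call was also lost without young replicate 2, young replicate 3 or restricted replicate 3 (adjusted p = 0.104, 0.0752 and 0.0619). Over the 15 alternatives edgeR's or DESeq2's adjusted p ran from 0.000339 to 0.124 for Cox6c, from 0.0139 to 0.170 for Cox8a and from 0.000743 to 0.0835 for Atp5md. In the table Cox6c overlaps Vps13b (605 counts over all libraries) and Atp5md overlaps Taf5 (66 counts), each on the opposite strand, and whether counting used strand is not given, so their reads cannot be told apart there.

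**Figure D3:**
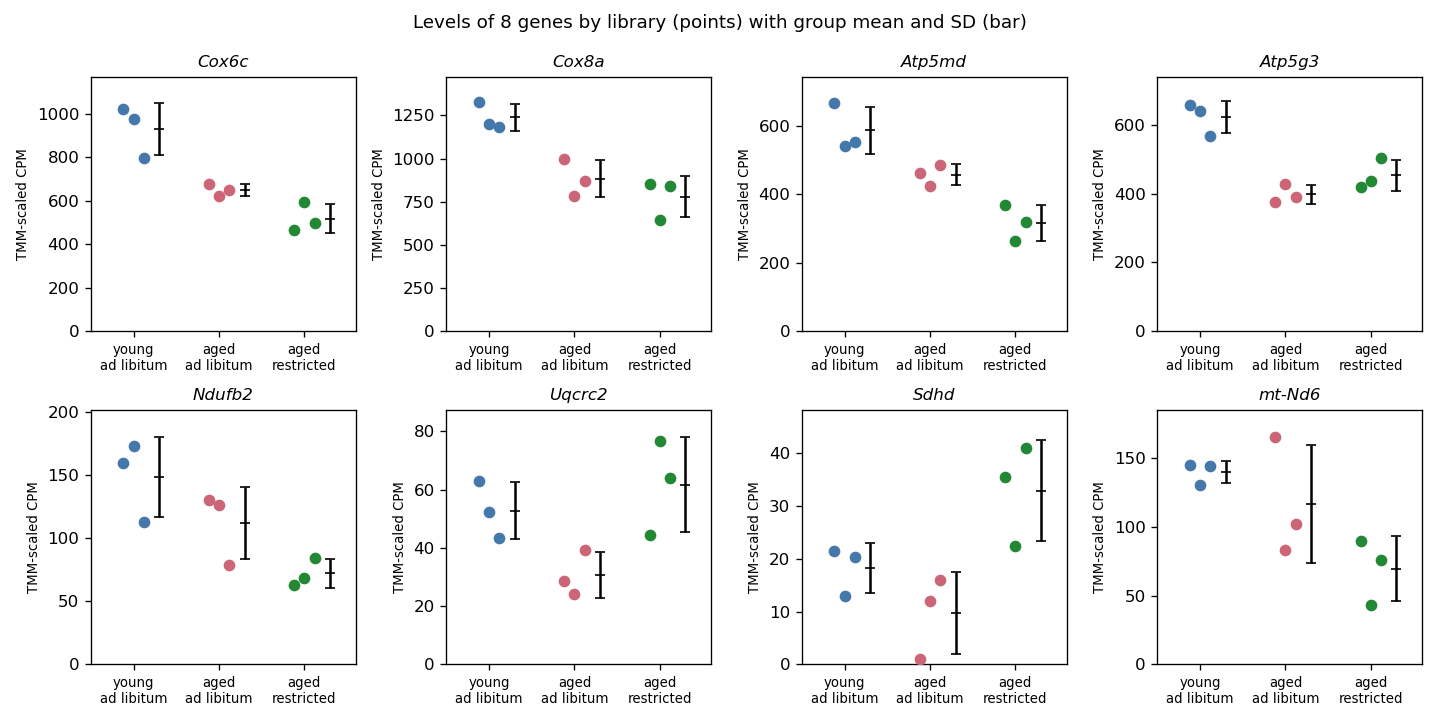
TMM-scaled CPM of 8 respiratory genes in each library (points, 3 per group), with group mean and SD; the 3 called genes come first, and the others were picked from the genes with the smallest p-values. Cox6c and Atp5md step down over the 3 groups without overlap, while Uqcrc2 and Sdhd have their lowest group in aged ad libitum mice.

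Other genes with small p-values in the same comparison did not pass. Ndufb2, an accessory subunit of complex I, was at 160, 173 and 112 CPM in young, 130.2, 126 and 78.7 CPM in aged ad libitum and 63.1, 68.2 and 84.5 CPM in restricted libraries (restricted against young log2 fold change -1.04 ± 0.29 SE, edgeR adjusted p = 0.0534). Ndufa5, also accessory, was at 298, 222 and 197, at 173, 211 and 151 and at 142, 128 and 133 CPM in the same order (adjusted p = 0.0708). Both had all restricted libraries below all young ones. In the table Ndufb2 overlaps Braf (314 counts over all libraries) on the opposite strand, and their reads cannot be told apart there. Uqcr11, a small subunit of complex III, was at 224 ± 21.1 and 140.1 ± 3.59 CPM (SD, n = 3; edgeR adjusted p = 0.168). Atp5k, the e subunit of ATP synthase, was at 373 ± 99.0 and 229 ± 20.4 CPM (adjusted p = 0.111). Uqcrq, another small subunit of complex III, was at 259.6, 296 and 365 CPM in young and at 237, 234 and 200.1 CPM in restricted libraries, without overlap (edgeR adjusted p = 0.404). Sdha, the flavoprotein of complex II, lay the other way without overlap, at 53.1 to 67.8 CPM in young and 73.1 to 109 CPM in restricted libraries (adjusted p = 0.563).

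Core and accessory subunits of complex I are set side by side next. Of its 29 accessory genes 25 had a lower fitted level in restricted than in young mice, at a median log2 fold change of -0.35. Of its 7 nuclear core genes 4 had a lower one. In complex III the 5 small subunits were all lower (median -0.46), and of the 4 core and redox subunits 1 was (median 0.12). The difference between core and accessory genes was not tested. Among the nuclear respiratory genes, transcript length moved with the fold changes of the restricted group, though not with those of age given above. Over 80 nuclear genes with a length in GENCODE M21, the log2 fold change of restricted against aged ad libitum mice had a Spearman correlation of 0.34 with length, and that of restricted against young mice 0.32. Over 8981 tested genes the same correlations were -0.20 and -0.033. The 40 shorter nuclear genes had a median of -0.39 for restricted against young mice (34 lower) and the 40 longer ones -0.093 (24 lower), and the 388 short genes of all kinds had -0.17. Among those 388, 18 passed with a lower level and 15 with a higher one. Their groups were apart downward for 89 genes and upward for 43. The points share their libraries, and the length was looked at after the values were seen.

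Mitochondrially encoded genes had no common direction in any comparison, and none of the 13 passed. Their median log2 fold change was -0.025 with age, -0.018 with restriction and -0.0033 for restricted against young mice, with standard errors of single genes from 0.28 to 0.47. These medians turned with single libraries: without restricted replicate 1 they were -0.35 (restricted against aged ad libitum) and -0.43 (restricted against young), and without restricted replicate 2 they were 0.30 and 0.29. With age they ran from -0.15 to 0.058 over the libraries left out. The libraries of a group differed widely: mt-Co1, a catalytic subunit of complex IV, was at 35883, 14326 and 37368 CPM in the 3 restricted libraries. The smallest p belonged to mt-Nd6, the complex I subunit encoded on the opposite strand. It stood at 145, 130.5 and 144 CPM in the young libraries, 165, 83.1 and 102 CPM for aged ad libitum mice and 89.7, 43.3 and 75.6 CPM in the restricted libraries. All restricted libraries were below all young ones (log2 fold change -1.02 ± 0.31 SE, edgeR adjusted p = 0.0956). Its gene overlaps that of mt-Nd5 in the table, with 1039 counts over all libraries against 53945 for mt-Nd5, and the sources used here do not say whether counting used strand, so reads of the 2 cannot be told apart.

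The shares of single genes within the mitochondrial counts do not depend on the mitochondrial total, and some of them separated the groups. mt-Co1 took 10.3%, 9.24% and 9.19% of the 13 genes' counts in young, 12.4%, 11.1% and 11.2% in aged ad libitum and 6.50%, 7.37% and 9.73% in restricted libraries. The aged ad libitum group was thus above both others. mt-Nd4, a proton-pumping subunit of complex I, went the other way, with 11.3%, 10.46% and 10.4% in young, 8.96%, 8.22% and 7.12% in aged ad libitum and 10.7%, 11.2% and 9.35% in restricted libraries. Aged ad libitum libraries were below all others. mt-Co2, another complex IV subunit, took 9.44%, 9.53% and 10.6% in young libraries and 11.4% to 13.2% in all 6 aged libraries. In all, 4 of 13 shares were apart with age (mt-Co1 and mt-Co2 higher, mt-Nd4 and mt-Nd4l lower), 3 with restriction (mt-Nd1 and mt-Nd4 higher, mt-Co1 lower) and 4 between restricted and young mice (mt-Co2 and mt-Co3 higher, mt-Nd4l and mt-Nd6 lower). Over all tested genes, by level and not by such shares, 8.58% lay apart downward and 7.4% upward with age. With restriction these were 8.47% and 9.26%, and between restricted and young mice 9.26% and 9.82%. The 13 shares of a library add up to its whole mitochondrial count, so where some rise others must fall, and they are not independent. The shares of the 13 genes were not tested, and an exact permutation test of 3 libraries against 3 cannot go below p = 0.1. mt-Nd4l and mt-Nd4 overlap in the table, as do mt-Atp8 and mt-Atp6, and mt-Atp6 and mt-Co3, so counting could move reads between such neighbours.

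**Figure D4:**
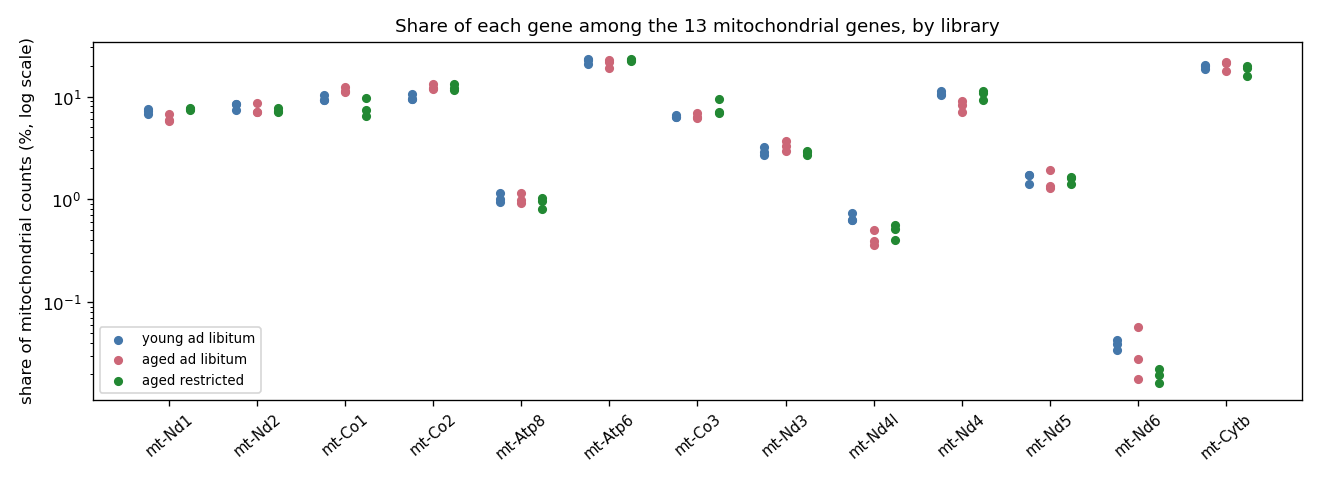
Share of each of the 13 genes in the mitochondrial counts of a library (%, log scale), with 3 libraries per group. mt-Co1 lies highest for aged ad libitum mice (11.1% to 12.4%) and mt-Nd4 lowest there (7.12% to 8.96%), while mt-Atp6 and mt-Cytb overlap in all groups.

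Among 6 pairs of alternative isoforms, the ubiquitous form held most counts. The muscle form Cox8b had no count against 9407 for Cox8a, which allows a share of up to 0.0319% (3 counts of the total; counting error only), and Cox4i2, known for its induction by hypoxia, had 1 count against 1751 for Cox4i1. Cox6b2 took 0.291% of its pair. The hypoxia-induced Ndufa4l2 had 19 counts against 472 for Ndufa4, of which 7 lay in young replicate 2 and 7 in aged ad libitum replicate 1, while 4 of 9 libraries had none. It overlaps Shmt2 (822 counts) on the opposite strand in the table, and reads of these genes cannot be told apart there. Cox7a1, a form known from heart and skeletal muscle, had 2.48, 15.3 and 4.42 CPM in young, 23.4, 2.68 and 2.46 CPM in aged ad libitum and 15.5, 3.28 and 4.45 CPM in restricted libraries, all groups overlapping (edgeR adjusted p from 0.940 to 0.998 in the 3 comparisons). Cox6a2, the heart and muscle form of subunit 6a, took 7.12% ± 0.0789 of its pair in young, 6.58% ± 4.56 in aged ad libitum and 7.23% ± 2.92 in restricted mice (SD, n = 3). These shares rest on 14 to 61 counts of Cox6a2 per library. The summed muscle list was higher in every restricted than in every young library, and its part in the Cox6a2 values was not tested. In the table Cox6a2 lies within the interval of Itgad on the opposite strand, and Itgad had no count.

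Genes that build and serve the chain gave no call in any of the 6 lists and 3 comparisons. Of 39 tested assembly factors 27 were lower with age (median log2 fold change -0.33) and 23 higher with restriction (median 0.19). Of 77 mitochondrial ribosomal proteins, which translate the 13 messages, 50 were lower with age (median -0.20) and 49 higher with restriction (median 0.15). Of 15 genes of mitochondrial DNA expression 11 were lower with age (median -0.51) and 12 higher with restriction (median 0.14). Of 16 genes of the pyruvate dehydrogenase complex and the citric acid cycle 11 were lower with age (median -0.079) and 11 higher with restriction (median 0.46). The 8 tested regulators of biogenesis were split 4 to 4 with age, and 5 were lower with restriction, and of 7 carriers and uncoupling proteins 6 were lower with age and 6 higher with restriction. The 2 comparisons share the aged ad libitum libraries, so a low value there lowers the former and raises the latter.

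Cs, citrate synthase, the first enzyme of the citric acid cycle, came nearest to the threshold. It stood at 91.8, 118 and 90.2 CPM in the young libraries, 44.8, 34.9 and 44.3 CPM for aged ad libitum mice and 90.8, 79.4 and 109 CPM in the restricted libraries. The aged ad libitum libraries lay below all others (log2 fold change -1.27 ± 0.31 SE with age, edgeR adjusted p = 0.0683; 1.16 ± 0.31 with restriction, adjusted p = 0.0646). Tfam, which packages mitochondrial DNA and starts its transcription, was at 33.9, 31.4 and 14.2 CPM, at 1.02, 6.70 and 13.5 CPM and at 16.6, 17.7 and 25.8 CPM in the same order. Its aged ad libitum libraries were also the lowest (edgeR adjusted p = 0.275 and 0.391). Ucp2, an uncoupling protein found in macrophages and other leukocytes, was at 62.1, 30.8 and 76.2 CPM in aged ad libitum and at 204, 56.4 and 150.3 CPM in restricted libraries, with overlap (adjusted p = 0.144). The summed macrophage list was higher in every restricted than in every ad libitum library, and its part in these values was not tested.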

How the data were processed

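RNA of cells bound by CD8a beads was sequenced in 9 libraries (3 groups of 3), made with the QuantSeq 3′ kit (forward) and read as single reads of 75 bp, per the labels' protocols. The authors deposited raw read counts for each gene. The submitters' processing notes name Trim Galore, STAR, featureCounts and the build GRCm38 (mm10). However, the table's own gene positions differ from those of GRCm38 (Cox8a, on the minus strand of chromosome 19, lies at 7192518 to 7194981 in the table, and its promoter at 7217567 to 7217866 in GRCm38.p6), so the build behind them is not established and they were used only to find genes that overlap within the table. Tool versions, and the handling of strand, of reads with several matches and of molecular identifiers, are not given in the sources used here. PCR copies may therefore count as reads, and limits from counts cover counting error only. Many nuclear respiratory genes have processed pseudogenes, and how reads were split between them is not known.

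Of 14418 genes with a count, 9009 were kept by filterByExpr with groups and a minimum count of 10. The test was the robust quasi-likelihood test of edgeR 4.0.16 (R 4.3.3) after TMM scaling, with 1 coefficient per group over all 9 libraries and 6 residual degrees of freedom, and the standard error was derived from the F statistic. P-values were adjusted over all tested genes of a contrast (Benjamini-Hochberg, 0.05). The biological coefficient of variation was 40.5%. The fit was also run on counts simulated from its own estimates of the spread, which cannot show a misfit to these libraries. Sums over genes are given per library with no p. The members and lists were chosen with earlier results of these data known. Named genes come from those called, the 2 with the smallest p per complex and comparison, the mitochondrial genes, the isoform pairs, the genes nearest the count minimum, and per context list the 2 with the smallest p; Ndufa10, Atp5g1 and Atp5g2 were named after their values were seen, and 1 gene is not reported here. DESeq2 1.42.0 and other alternatives are in the closing section. The series' text calls the replicates independent, and libraries of a group differed beyond counting noise (smallest ratio of chi-square to its degrees of freedom 5.65).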

Additional observations from a re-analysis of the deposited data

How the results depend on the processing

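Counts of called genes were small and moved with settings. With age, 1 nuclear gene passed with DESeq2 (Atp5g3) and 1 with no filter on low counts (Ndufb3), and 1 mitochondrial gene (mt-Nd4l) with only the 2 groups fitted. With restriction, 1 nuclear gene, the pseudogene Cox5b-ps, passed with no filter. For restricted against young mice, 1 nuclear gene passed under library totals and 5 with DESeq2, and 1 mitochondrial gene (mt-Nd6) with no filter and 1 under a replicate block. Over all tested genes the block called 49, 133 and 223 in the 3 comparisons (26, 85 and 175 without it), DESeq2 called 89, 171 and 229, the test with no filter 126, 224 and 286, with only the 2 groups fitted 58, 43 and 213, and under library totals 19, 50 and 117. Same-numbered libraries deviated together weakly at most (correlations from -0.028 to 0.077 over 9 pairs), although 7 of 9 libraries correlated best with one of their own number. The numbers were not taken as pairs in the main fit.

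Leaving out each library gave 0 to 1 nuclear and 0 to 1 mitochondrial genes with age, 0 to 1 mitochondrial with restriction, and 0 to 4 nuclear for restricted against young mice; the calls with age and restriction appeared without restricted replicate 2. The median nuclear log2 fold change with age ran from -0.39 to -0.23, and the mitochondrial median from -0.35 to 0.30 with restriction and from -0.43 to 0.29 for restricted against young mice. For mt-Nd4l the fold change ran from -0.023 to 0.72 with restriction and from -0.70 to 0.046 for restricted against young mice, turning at -0.023 without restricted replicate 1 and at 0.046 without replicate 2. The summed levels and the nuclear-to-mitochondrial ratios moved by less than their spread under every alternative run for them. Leaving out 1 of 3 libraries cannot move a group mean by its SD, so for those runs this outcome was fixed in advance. With 1 library left out, the log2 ratio of nuclear sums (CPM of all counts) ran from -0.39 to -0.21 with age. With restriction it ran from -0.14 to 0.12, turning its sign. The restricted group's mean of nuclear per 1000 mitochondrial counts ran from 30.7 to 53.2. Depth limits genes near 20 CPM, such as Sdhd, where 1 count is worth 0.795 to 1.23 CPM.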
